A study of Mus musculus with 37 samples.

Results

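The genes described here are 38 genes of the vascular endothelium, measured in preparations of cortical astrocytes from mice 4 months after controlled cortical impact (CCI, a contusion injury made by a piston) or sham surgery. They were chosen as a list of established endothelial genes, by symbol and by a rule that uses no measured value, and all 38 were found among the 21975 genes listed for both hemispheres of the cortex. The list was drawn up with earlier results of these data known, and the study had named Vwf, Sox17 and Cd34 from these samples. Astrocytes had been pulled from dissociated cortex with magnetic beads against ACSA-2, an antigen of the astrocyte surface, and RNA of each preparation was sequenced. The study asked which astrocyte transcripts differ between injured mice that developed post-traumatic epilepsy (PTE+) and injured mice that did not (PTE−).

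The ipsilateral cortex, on the side of the impact, gave 4 PTE+, 10 PTE− and 5 sham libraries, and the contralateral cortex gave 4 PTE+, 9 PTE− and 5 sham libraries, 37 in all. Each library came from 1 mouse, so replicates are animals, and 17 of the 20 mice gave both hemispheres. The labels give all mice as wild type, and the methods describe a craniectomy and an implanted EEG electrode for sham mice too. The labels name the strain CD31 and the methods CD1, all males, and the age of the mice is not given in the sources used here. The PTE+ and PTE− groups were both injured, and the sham mice had no impact. The names of the mice begin with 8 or 9, a difference whose meaning is not stated, and both kinds occur in every group.

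Endothelial cells line every vessel of the brain and, with their tight junctions and selective transporters, form the blood-brain barrier. Astrocyte endfeet wrap the same vessels, so astrocytes and endothelium lie next to each other in the tissue that was dissociated. Angiopoietin and VEGF receptors on endothelial cells govern vessel growth and stability, SOXF and ETS transcription factors maintain endothelial identity, and sialomucins coat the side that faces the blood.

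Astrocyte genes were abundant in the data, which hold no whole-cortex library to set them against. The astrocyte water channel Aqp4 stood at 647 ± 149 TPM (± SD, n = 37 libraries), a measure scaled by transcript length and library total and the glutamate transporter Slc1a3 at 2140 ± 436 TPM. Genes of other cells were present as well. The pericyte gene Rgs5 stood at 58.7 ± 29.8 TPM and the erythrocyte globin gene Hbb-bs at 834 ± 722 TPM. The myelin gene Mbp stood at 1150 ± 742 TPM and the neuronal gene Rbfox3 at 19.7 ± 13.4 TPM. The microglial integrin Itgam had a median of 0.72 TPM. The 12 microglial genes together had group means of log2(TPM + 1) from 3.65 to 3.89, so microglial transcripts were present too. TPM are scaled within a library and keep no sequencing depth, so the depth behind each value is unknown and counting error cannot be separated from other spread. The ipsilateral library of PTE− mouse 9_14 stood apart, with 10727 genes above 0 against 15599 to 18534 in the other libraries, and its effect on the ipsilateral values is given with them.

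All 38 endothelial genes were detected, and 31 of them were above 0 in every library. The other 7 were at 0 TPM in the ipsilateral library of mouse 9_14 and in no other library. Together the 38 genes made up between 0.104% and 0.549% of all TPM in a library. Medians over all libraries spanned from 420.45 TPM for Ly6c1, a surface protein of brain endothelium, to 0.59 TPM for Cyyr1. A median of at least 100 TPM was reached by 7 genes, 13 lay from 10 to under 100 TPM, 16 from 1 to under 10 TPM, and 2, the ETS factor Erg and Cyyr1, under 1 TPM. Ly6c1 and Ly6a have near-identical relatives, and so has Abcb1a, so their reads could have been split between copies.

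The defining markers spanned that range. Cldn5, the main claudin of endothelial tight junctions (chr16:18776847-18778262 in GRCm38), had a median of 226.54 TPM. Flt1, a VEGF receptor (chr5:147561604-147726011), had a median of 27.98 TPM. Pecam1, the adhesion protein CD31 of endothelial junctions (chr11:106654217-106750628), had a median of 12.75 TPM. Cdh5, the cadherin of endothelial adherens junctions (chr8:104101625-104144511), had a median of only 1.56 TPM. The lowest Cldn5 value of any library, 79.89 TPM, was above the highest Cdh5 value, 9.34 TPM. TPM are per length, so levels of different genes could be set side by side.

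**Figure D1:**
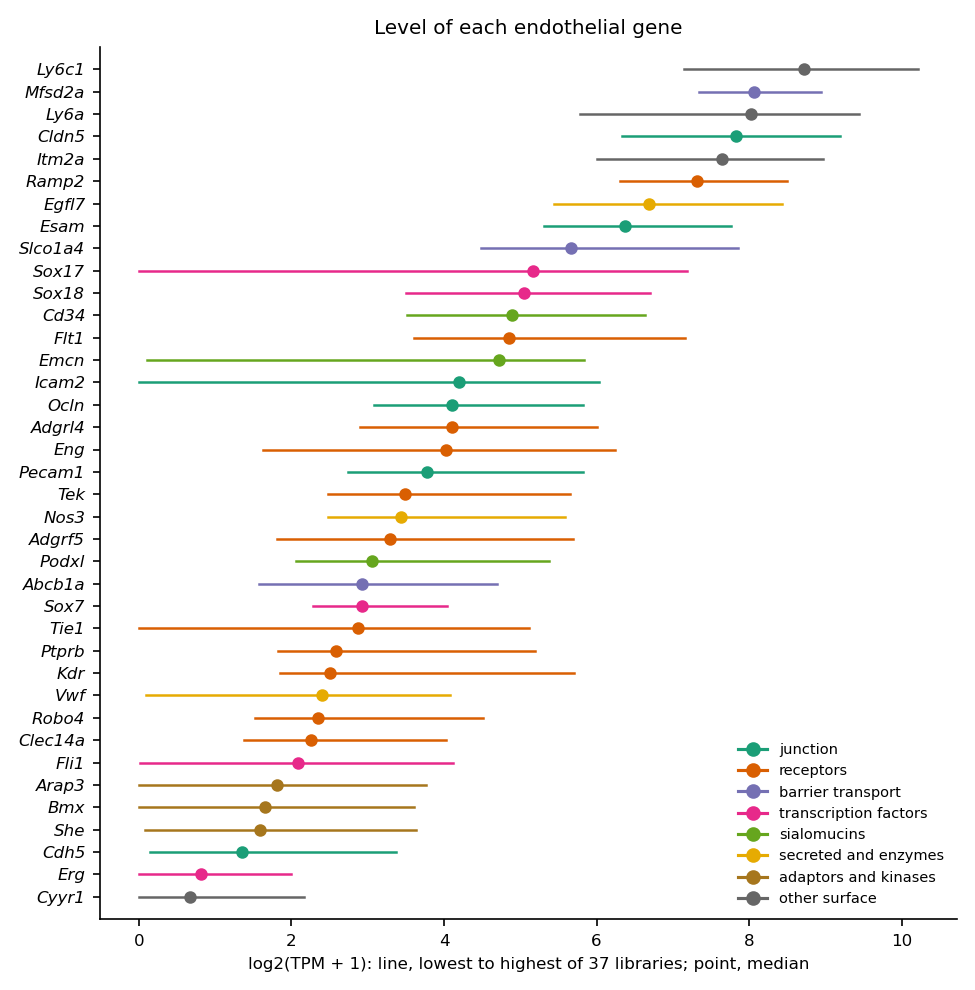
Level of each of the 38 endothelial genes as log2(TPM + 1), with a line from the lowest to the highest of the 37 libraries, a point at the median and a colour for each of 8 roles. Ly6c1 is at the top, with a median of 420.45 TPM, and Cyyr1 at the bottom, with 0.59 TPM, and lines that start at 0 mark genes that read 0 TPM in the ipsilateral library of mouse 9_14.

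Promoters are shown for Cldn5, a high-level junction gene, and Tie1, an angiopoietin co-receptor that showed the largest difference between groups below, since the genes moved together and ETS factors are known regulators of endothelial genes. Of the 38 genes, 23 matched the RefSeq promoter table (GRCm38.p6). The ETS core GGAAG, on either strand, was in the promoter of 17 of the 23 (73.9%), against 63.6% of 27025 promoters of the same length. The SOX motif AACAAT, also on either strand, was in 3 of the 23 (13%) against 9.6% of all. The motifs do not overlap in letters. The 250 bases before each RefSeq start site are given with every ETS core in capitals, for Cldn5 at chr16:18776597-18776846 on the plus strand and for Tie1 at chr4:118489850-118490099 on the minus strand, both in GRCm38.p6. The Tie1 stretch lies mostly within the span that GENCODE gives for that gene, whose start it places further upstream.
Cldn5: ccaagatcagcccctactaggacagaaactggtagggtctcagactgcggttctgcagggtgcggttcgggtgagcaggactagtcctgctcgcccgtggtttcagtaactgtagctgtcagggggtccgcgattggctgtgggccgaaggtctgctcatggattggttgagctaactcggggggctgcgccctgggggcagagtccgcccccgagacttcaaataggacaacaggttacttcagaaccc
Tie1: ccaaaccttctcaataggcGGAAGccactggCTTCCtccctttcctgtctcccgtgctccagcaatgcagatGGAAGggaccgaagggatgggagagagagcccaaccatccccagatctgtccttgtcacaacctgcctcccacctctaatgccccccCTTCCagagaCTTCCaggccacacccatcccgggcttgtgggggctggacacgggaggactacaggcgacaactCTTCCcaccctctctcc
The Tie1 promoter held 6 ETS cores and the Cldn5 promoter held 0, a description of these letters only.

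Most of the endothelial genes varied together across libraries. For each gene the Pearson correlation of log2(TPM + 1) with the mean of the other 37 was computed within a hemisphere on deviations from the group means, so that differences between groups did not enter. It is a description over libraries that share the scale of TPM. In the contralateral cortex (18 libraries) the median was 0.86, and 25 of 38 genes were above 0.8. Flt1 reached 0.97 and Pecam1 0.96. Mfsd2a, the lipid transporter of the barrier endothelium, was at 0.12, the only gene under 0.5. In the ipsilateral cortex (19 libraries) the median was 0.64, with 11 genes above 0.8 and 10 under 0.5. Without the library of mouse 9_14 it was 0.83, with 22 genes above 0.8 and 1 under 0.5. Slco1a4, an organic anion transporter of the barrier, was at 0.94 with and without that library. The VEGF receptor Kdr was at 0.19 with it and 0.7 without it, and Sox17 at 0.53 and 0.92, while Mfsd2a was at −0.2 and −0.19. Mfsd2a was thus among the most abundant of the genes and the one least tied to the rest in both hemispheres.

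Lists of other vascular and brain cell genes were set beside the mean log2(TPM + 1) of the 38 genes, again as deviations from group means. In the contralateral cortex the mean log2(TPM + 1) of further endothelial genes gave r = 0.95 (rho 0.84, n = 18, 0.9 without the 2 farthest libraries, 0.65 and 0.97 within the names that begin with 8 and 9). Mural cell genes gave r = 0.69 (rho 0.6, 0.6 without the 2 farthest, 0.62 and 0.74 within names), and fibroblast genes r = 0.62 (rho 0.54, 0.47 without the 2 farthest, 0.73 and 0.77 within names). Astrocyte genes gave r = −0.15 (rho −0.33, −0.44 without the 2 farthest, −0.4 and −0.12 within names). In the ipsilateral cortex further endothelial genes gave r = 0.9 (rho 0.88, n = 19, 0.85 without the 2 farthest, 0.49 and 0.93 within names), mural genes 0.2 (rho 0.29, 0.18 without the 2 farthest, 0.55 and 0.36 within names) and fibroblast genes −0.46 (rho −0.35, −0.27 without the 2 farthest, −0.58 and −0.46 within names). Without the library of mouse 9_14 these were 0.94, 0.24 and −0.53. Erythrocyte genes gave r = 0.7 ipsilaterally (rho 0.61, 0.49 without the 2 farthest, 0.28 and 0.84 within names). Microglial genes gave 0.52 (rho 0.43, 0.48 without the 2 farthest, −0.26 and 0.56 within names). Without mouse 9_14 they gave 0.74 and 0.61. Contralaterally they gave 0.44 and 0.27. Ipsilateral astrocyte, oligodendrocyte and neuronal genes gave −0.36, 0.07 and 0.01. The part of these cells in the endothelial values was not tested. The correlation with the mural and fibroblast lists over all libraries was thus higher on the contralateral side, a difference that was not tested.

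In the contralateral cortex, endothelial genes were higher in PTE+ than in PTE− mice. Of the 38 genes, 35 were tested, those whose group mean exceeded 5 TPM in PTE+ or PTE− mice. A gene was called where limma gave p under 0.05 before adjustment and the fold change reached 1.2, and 12 genes were called higher and 0 lower. The background of genes called higher was 1.95% of those tested. None of the 35 passed a Benjamini-Hochberg adjusted p under 0.05 in limma (smallest 0.999), and neither did any other gene, a background of 0%. Among the 35, 7 passed the filter through the PTE+ group alone, which includes 3 of the 12 calls (She, Arap3 and Clec14a), and 9 of the 28 genes above the filter in both groups were called. With no filter on TPM, 9 of all 38 genes were called higher, against a background of 1.7%. Averaged over libraries, 37 of 38 genes were higher in PTE+, with a median log2 difference of 0.67 and a range from −0.06 to 0.98, and the median over all tested genes was 0.05. In bulk preparations such as these, more cells of a type and more RNA per cell cannot be told apart.

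The calls depended on mouse 9_17. Without its library 0 of 31 genes were called in limma (0 also at an unadjusted p under 0.05), the median over the 38 genes was 0.28, and 32 of 38 remained higher on average in PTE+. Without PTE+ mouse 9_18, 30 were called, without 8_10, 7, and without 8_17, 12. The share of all genes called in these refits is not given here, so the counts do not single out endothelial genes. The library of mouse 9_17 was the highest of the 18 contralateral libraries in 34 of the 38 genes and the highest of all 37 libraries in 31. The library of 9_18 lay under the PTE− median in 34, and those of 8_10 and 8_17 were both above it in 33. The mean log2(TPM + 1) over the 38 genes was 5.85 in 9_17, 4.76 in 8_10, 4.59 in 8_17 and 3.79 in 9_18, against 3.67 to 4.51 in the 9 PTE− libraries (median 4.21) and 3.46 to 5.16 in the 5 sham libraries. Library 9_17 was also the highest of the 4 PTE+ libraries in the mean log2(TPM + 1) of mural, fibroblast, microglial and astrocyte genes. Its median over all genes with a mean above 5 TPM was 5.05, against 4.69 in 8_10, 4.77 in 8_17 and 4.71 in 9_18. That median ran from 4.56 to 4.85 in PTE− and from 4.63 to 5.06 in sham libraries. After centring on library medians 12 genes were called. The part of this shift in the calls was not tested. Mural genes ran from 4.89 to 5.84 in PTE+ and from 4.64 to 5.4 in PTE− libraries, with 0 of 15 called. Fibroblast genes ran from 3.09 to 4.27 and from 2.76 to 3.97, with 1 of 11 called. Microglial genes ran from 3.27 to 4.59 and from 3.13 to 4.55, with 0 of 11 called, and erythrocyte genes from 6.66 to 8.98 and from 6.37 to 9.16, with 0 of 4 called. Neuronal genes also ran higher in PTE+, from 3.66 to 5.42 against 2.27 to 5.31, with 9 of 9 tested positive, a median difference of 0.69 and 1 called. Across contralateral libraries, as deviations from group means, the neuronal list gave r = −0.17 with the mean of the 38 endothelial genes (rho −0.2, n = 18, −0.14 without the 2 farthest libraries). The part of these cells in the result was not tested. Within the mice whose names begin with 8 (2 PTE+ and 4 PTE−) the median difference over the 38 genes was 0.5, with 36 positive. Within those that begin with 9 (2 PTE+, namely 9_17 and 9_18, and 5 PTE−) it was 0.81, with 36 positive. The genes varied together, so these counts of genes are not counts of replicates.

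**Figure D2:**
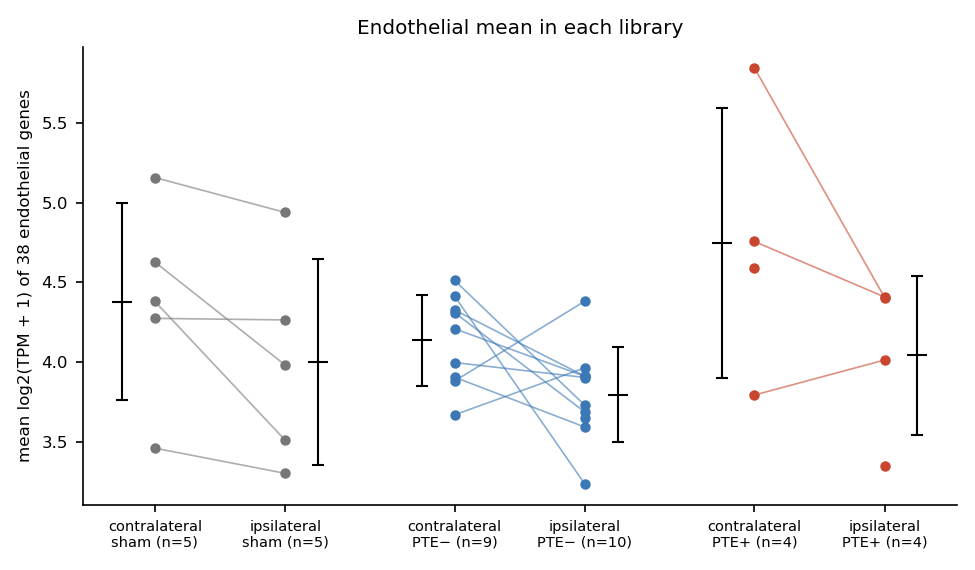
Mean log2(TPM + 1) over the 38 endothelial genes in each library by group and hemisphere, with lines joining both sides of a mouse and bars for the group mean and SD. The contralateral PTE+ libraries spread from 3.79 to 5.85 while the 9 contralateral PTE− libraries lie from 3.67 to 4.51.

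Receptors, the largest role, held the largest number of calls, 6 of 11 tested. Clec14a, 1 of the 6, and the receptor Robo4, not called, passed the filter only through the PTE+ group in which they were high. Their means were 8.05 and 8.06 TPM in PTE+ against 4.0 and 4.18 TPM in PTE−, so they add no support for a difference. Tie1 (chr4:118471191-118490061) stood at 11.97, 11.33, 33.67 and 6.29 TPM in PTE+ mice 8_10, 8_17, 9_17 and 9_18, and at 3.55 to 11.97 TPM with a median of 6.48 in the 9 PTE− mice. Mouse 9_17 was above every PTE− library and 9_18 was under their median, so the groups overlapped. The log2 difference was 0.98 ± 0.34 (SE), with a two-sided exact permutation p = 0.0238 and an unadjusted limma p = 0.0107. Without 9_17 it was 0.55. Eng, an endothelial co-receptor of the TGF-beta family (chr2:32646595-32682669), stood at 23.94, 21.19, 74.37 and 18.58 TPM in the same order, against 9.57 to 24.23 TPM in PTE− with a median of 15.29. All 4 PTE+ libraries lay above that median, and 1 lay above the whole PTE− range. Its log2 difference was 0.86 ± 0.3 (exact permutation p = 0.0126), and 0.41 without 9_17. Tek, the angiopoietin receptor TIE2, stood at 19.88, 16.66, 49.35 and 8.15 TPM against 7.23 to 15.76 (median 10.49), a log2 difference of 0.8 ± 0.32 (exact permutation p = 0.0434). It was 0.36 without 9_17. The adhesion G protein-coupled receptors Adgrf5 and Adgrl4 and the lectin Clec14a were the other receptors called, with log2 differences of 0.84, 0.69 and 0.71.

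Flt1 and Kdr, the VEGF receptors, did not pass. Flt1 stood at 53.16, 46.26, 142.26 and 20.68 TPM in PTE+ mice against 18.46 to 61.41 TPM in PTE− mice (median 32.04), so 9_17 was above the PTE− range and 9_18 near its lowest value. The log2 difference was 0.72 ± 0.38 (exact permutation p = 0.131), and 0.24 without 9_17. Kdr differed by 0.77 on the log2 scale (limma p = 0.0507).

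Of the junction genes, 1 of 5 tested was called. Pecam1 stood at 19.73, 19.84, 55.75 and 12.67 TPM in the PTE+ mice against 9.62 to 18.68 TPM (median 13.43) in the PTE− mice. Of the 4 PTE+ libraries 3 thus lay above every PTE− library, and 9_18 lay under their median. The log2 difference was 0.78 ± 0.29 (exact permutation p = 0.0182), and 0.37 without 9_17. Cldn5, the most abundant junction gene, stood at 468.0, 328.76, 583.82 and 203.27 TPM against 119.61 to 462.17 TPM (median 249.22) and was not called, with a log2 difference of 0.73 ± 0.36 (exact permutation p = 0.119). Cdh5 was under the filter, at 2.23, 2.3, 9.34 and 1.02 TPM against 0.75 to 2.22 TPM, a log2 difference of 0.6 (exact permutation p = 0.0923).

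Among sialomucins, Cd34, which marks vessel endothelium as well as blood progenitors (chr1:194938819-194961279), was the 1 of 3 called. It stood at 59.96, 46.07, 98.63 and 28.6 TPM in PTE+ against 16.74 to 50.83 TPM (median 28.15) in PTE−. All 4 PTE+ libraries were above the PTE− median, 9_18 barely so. The log2 difference was 0.83 ± 0.29 (exact permutation p = 0.0266), and 0.54 without 9_17. Of the transcription factors, 1 of 4 tested was called, Sox17, a SOXF factor of arterial endothelium (chr1:4490931-4497354). It stood at 94.66, 63.44, 144.39 and 34.78 TPM against 20.01 to 70.29 TPM (median 48.58), a log2 difference of 0.93 ± 0.38 (exact permutation p = 0.0643), and 0.62 without 9_17. Of the secreted proteins and enzymes, Nos3, the endothelial nitric oxide synthase, was the 1 of 3 called (0.66). Vwf, the clotting factor stored by endothelial cells (chr6:125546774-125686679), stood at 7.85, 7.42, 15.93 and 2.32 TPM against 2.4 to 9.78 TPM (median 4.48) and did not pass (0.54 ± 0.37, limma p = 0.162). Vwf, Sox17 and Cd34 had been named by the study from these samples, so their direction is not independent evidence. The study placed Vwf among its most upregulated genes in this comparison by fold change. It worked from counts with another test, while Vwf was not called here from TPM.

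Of the adaptors and kinases 2 of 3 were called, but all 3 passed the filter only through the PTE+ group in which they were high, so this count is no support for a difference. The SH2 adaptor She stood at 3.54, 3.22, 11.38 and 2.03 TPM against 1.29 to 3.1 TPM (median 1.98). Its log2 difference was 0.8 ± 0.32 (exact permutation p = 0.00699), and 0.38 without 9_17. She is described because it was called after that filter, so its p-value is no support either. The GTPase-activating protein Arap3 differed by 0.88. None of 3 barrier transport genes and none of 3 other surface genes tested were called in limma, at the unadjusted threshold used throughout.

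The smallest differences of the 38 genes were those of Mfsd2a, Ramp2, Sox7 and Ly6a, which were singled out after their values were seen. Mfsd2a, the lipid transporter, stood at 277 ± 74.3 TPM in PTE+ (n = 4) and 293 ± 92.1 TPM in PTE− (n = 9), a log2 difference of −0.06. Ramp2, the partner of the adrenomedullin receptor, stood at 181 ± 66.1 and 172 ± 37.7 TPM (0.02), and the SOXF factor Sox7 at 8.34 ± 5.02 and 7.07 ± 1.52 TPM (0.09). Ly6a, the surface protein Sca-1, stood at 376 ± 243 and 297 ± 140 TPM (0.20). Genes at high TPM and a gene under 10 TPM were thus both among those that differed least.

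**Figure D3:**
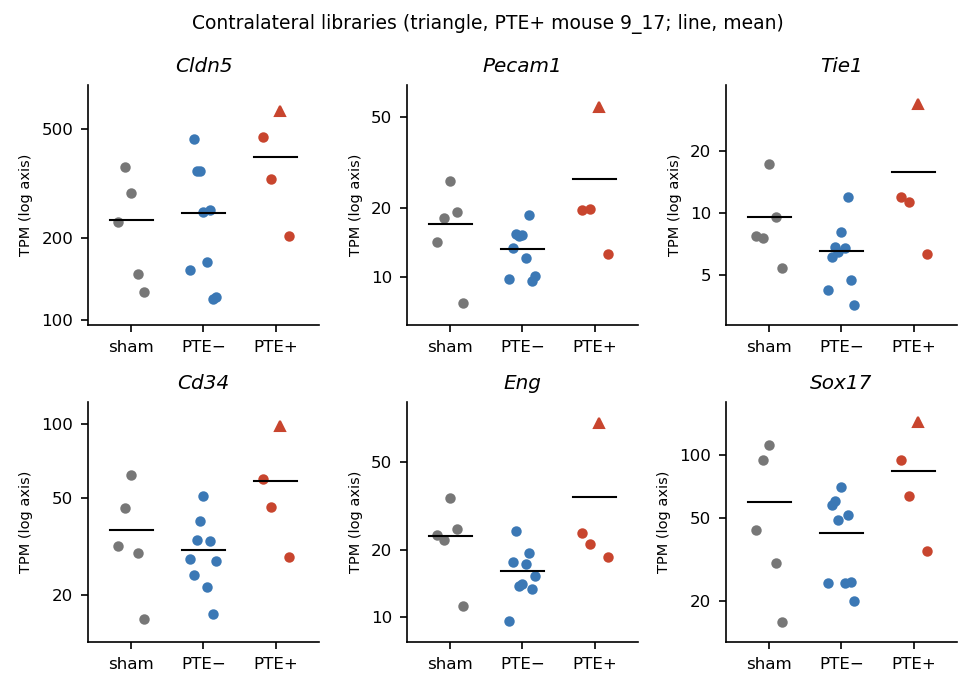
TPM per contralateral library on a log axis for Cldn5, Pecam1, Tie1, Cd34, Eng and Sox17, with 1 point per sham, PTE− or PTE+ mouse, a line at the group mean and a triangle for PTE+ mouse 9_17. In each of the 6 panels the triangle is the highest PTE+ point and 9_18 the lowest, for example 33.67 and 6.29 TPM for Tie1.

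The sham libraries of the contralateral cortex overlapped with both injured groups, and PTE+ mouse 9_17 lay above them in each of the 3 genes given next. Pecam1 lay between 7.69 and 26.23 TPM in sham mice, Tie1 between 5.41 and 17.29 TPM and Cd34 between 16.08 and 62.0 TPM. Averaged over libraries, 33 of the 38 genes were higher in PTE+ than in sham (median log2 difference 0.37), and 6 were higher in PTE− than in sham (median −0.26). These differences share groups with each other and with the PTE+ and PTE− comparison.

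Against sham, the pooled injured mice showed no called endothelial gene on the contralateral side. In limma 0 of 31 genes were called (0 at an unadjusted p under 0.05), against a background of 4.05%, and 0% of genes passed the adjusted threshold. The median log2 difference was −0.04, against −0.07 over all genes. Cldn5 differed by 0.27, Pecam1 by −0.04, Flt1 by −0.06, Cd34 by 0.06, and Vwf by −0.52 (limma p = 0.129). Without the library of PTE+ mouse 9_17, 2 were called lower, Abcb1a, the efflux pump P-glycoprotein, and Vwf. Without single sham mice the median ran from −0.31 (without 9_9, with 1 of 31 genes positive) to 0.19 (without 9_10, with 24 of 31 positive). It was −0.07 without 8_15, −0.02 without 8_16, 0.01 without PTE+ mouse 9_18, −0.08 without 8_10, −0.06 without 8_17 and −0.17 without 9_17.

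On the ipsilateral side, no endothelial gene was called between PTE+ and PTE− mice, a count near the background that does not show the groups to be alike. In limma 0 of 29 genes were called (0 at an unadjusted p under 0.05), against a background of 0.573%, and 0% of genes passed the adjusted threshold. Averaged over libraries, 32 of 38 genes were higher in PTE+, and the median over the 29 was 0.18 against 0.12 over all genes. Without the library of mouse 9_14, Ptprb, the phosphatase that acts on TIE2, was called, and without PTE+ mouse 9_19, Slco1a4. Ptprb passed the filter only through PTE+ mice (mean 6.96 TPM, against 4.93 TPM in PTE− mice with 9_14 included). Its call is thus no support for a difference. Within mice whose names begin with 8, of which 1 was PTE+, the median was 0.62, and within those that begin with 9 it was 0.12. Of 4 erythrocyte genes tested, Hba-a1 (−1.11) and Hbb-bt (−1.09) were called lower in PTE+ there, and the mean log2(TPM + 1) of the erythrocyte list ran from 5.55 to 7.06 in PTE+ and from 5.53 to 8.33 in PTE− libraries. Neuronal genes were higher in PTE+ in 9 of 9 tested (median 0.76) and oligodendrocyte genes in 6 of 7 (median 0.66), with 0 called in limma. The part of these cells in the result was not tested.

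Cldn5 stood at 423.02, 226.54, 246.31 and 100.47 TPM in ipsilateral PTE+ mice 8_10, 9_17, 9_18 and 9_19, against 88.55 to 362.61 TPM in the 10 PTE− mice (median 210.62). The groups overlapped over most of their range, and the log2 difference was 0.22 (limma p = 0.559). Pecam1 stood at 18.58, 15.03, 12.75 and 7.86 TPM against 5.7 to 17.47 TPM (median 10.03), a log2 difference of 0.33 (limma p = 0.263). Flt1 stood at 36.63, 46.9, 27.41 and 12 TPM against 11.18 to 44.78 TPM (median 25.05), a log2 difference of 0.27. Mouse 9_19, which has no contralateral library here, was the lowest of the 4 in each of these genes. The ipsilateral library of 9_17 was the highest of the 4 in Flt1 and not in Cldn5 or Pecam1. Eng differed by 0.63, Tie1 by 0.71, Sox17 by 0.72 and Cd34 by 0.07, none past the threshold. Without the PTE− library of mouse 9_14, in which Tie1 and Sox17 were at 0 TPM and Eng at 2.1 TPM, they differed by 0.42, 0.46, 0.23 and 0.19. Cdh5, which was under the filter, stood at 1.37, 2.34, 1.39 and 1.48 TPM against 0.11 to 1.74 TPM (log2 difference 0.36, exact permutation p = 0.142).

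**Figure D4:**
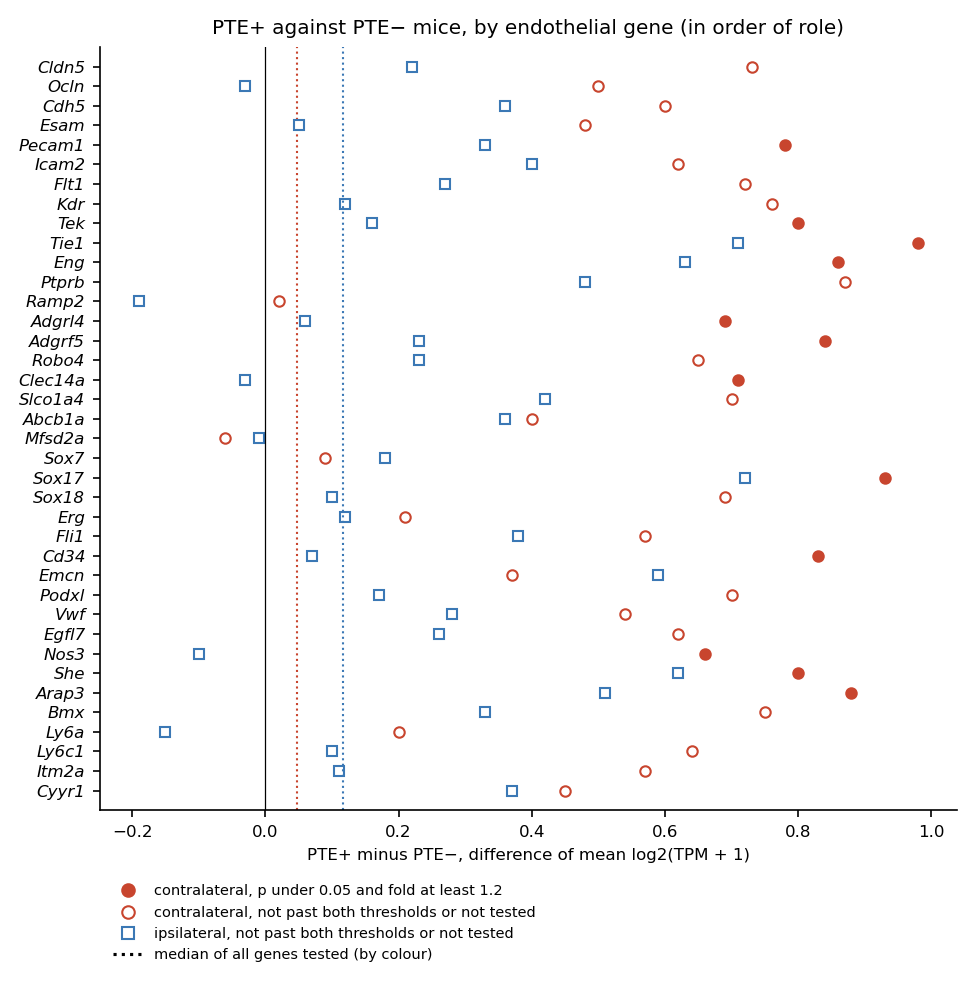
Log2 difference PTE+ minus PTE− for each of the 38 endothelial genes in the contralateral and the ipsilateral cortex, on log2(TPM + 1), with marks for the genes called in limma. Contralateral differences run from −0.06 to 0.98 with 12 called, and no ipsilateral difference is called.

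A call on 1 side only does not show that the sides differ, so an interaction of outcome and hemisphere was tested. In limma 0 of 35 genes were called (0 at an unadjusted p under 0.05), against a background of 0.0843%, and 0% of genes passed the adjusted threshold. The median over the 35 was −0.41 (the ipsilateral effect minus the contralateral one), against 0.07 over all genes. Cd34 differed by −0.76 (limma p = 0.119), Pecam1 by −0.46 and Cldn5 by −0.51. Within the mice with both hemispheres (3 PTE+ and 9 PTE−) these differences were smaller, at −0.39, −0.23 and −0.19. With the mouse as a block the count was also 0 and the median −0.3. Without mouse 9_18, 3 were called, Adgrl4, Cd34 and Podxl, and the median was −0.74. It was −0.16 without 9_17 and −0.13 without 9_19. Without the library of mouse 9_14 the count was 0, the median −0.43 and Cd34 −0.64.

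Between the ipsilateral cortex of injured and sham mice no endothelial gene was called either, again a count near the background. In limma 0 of 30 were called (0 at an unadjusted p under 0.05), against a background of 1.62%, and 0% of genes passed the adjusted threshold. The median difference was −0.13, against −0.01 over all genes, and 9 of 38 genes were higher in injured mice on average. In the 5 sham mice Pecam1 stood at 14.5 ± 8.11 TPM, Cldn5 at 200 ± 108 TPM and Sox17 at 44.9 ± 30.7 TPM (SD). The log2 differences of injured mice from them were −0.24, 0.18 and −0.64, and for Sox17 −0.28 without the library of mouse 9_14. Without single sham mice the median ran from −0.37 (without 9_9) to 0.16 (without 9_10, the sham mouse with the highest Cldn5, Pecam1 and Flt1 on that side). It was −0.22 without 9_11, −0.04 without 8_15 and −0.07 without 8_16, and −0.06 without PTE+ mouse 9_19. Of 9 oligodendrocyte genes 4 were called lower in injured mice there, and their part in the endothelial values was not tested.

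Within mice, the endothelial genes were lower in the ipsilateral than in the contralateral preparation. The hemispheres are in tables deposited separately, so hemisphere and table cannot be told apart. In the 12 injured mice with both sides, 7 of 31 genes were called lower and 0 higher (limma), against a background of 1.04% called lower. That fit did not pair the sides of a mouse and took the libraries as independent, unlike the block and the permutation of signs. None passed the adjusted threshold, which 0.0483% of genes did. With the mouse as a block, 17 were called lower, against a background of 2.11%, with none past the adjusted threshold, which 0.213% of genes passed. All 38 genes were lower on average on the ipsilateral side, with log2 differences from −0.61 to −0.14 and a median of −0.36. The median over the 31 tested genes was −0.38, against −0.01 over all genes. Without PTE+ mouse 9_17 the count was 2 (Itm2a and Podxl), or 7 with the mouse as a block, and the median over the 38 genes was −0.27 with all 38 still lower on average.

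Icam2, an adhesion molecule of endothelial junctions, had the largest mean difference. It stood at 17.1 TPM ipsilaterally and 28.4 TPM contralaterally and was lower ipsilaterally in 10 of 12 mice, with log2 differences from −2.2 to 0.8. The mean was −0.61 ± 0.87 (SD; exact permutation of signs, p = 0.0317). Podxl, the sialomucin podocalyxin, stood at 6.22 and 11.2 TPM and was lower in 10 of 12 mice (−0.56 ± 0.84, exact permutation p = 0.042). Itm2a, a transmembrane protein abundant in brain endothelium, stood at 153 and 223 TPM and was lower in 11 of 12, with a smaller spread (−0.49 ± 0.5, exact permutation p = 0.00684). Mouse 9_16 was the exception for Itm2a, at 158.06 TPM ipsilaterally and 109.17 TPM contralaterally.

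Pecam1 stood at 11.3 TPM ipsilaterally and 17.3 TPM contralaterally and was lower in 9 of 12 injured mice (−0.46 ± 0.7, exact permutation p = 0.0405). Clec14a stood at 3.11 and 5.03 TPM and was lower in 10 of 12 (−0.46 ± 0.66, exact permutation p = 0.0347). It passed the filter only through the contralateral side, where it was high, so its call and p-value are no support for a difference. Kdr, Ptprb, Vwf and Robo4 entered the tested genes in the same way. Cd34 stood at 25.8 and 38.6 TPM and was lower in 9 of 12 (−0.47 ± 0.75, exact permutation p = 0.0576). Sox18, a SOXF factor, was the other gene called, with a difference of −0.54. Cldn5 was not called (−0.27 ± 0.8, lower in 8 of 12, exact permutation p = 0.264), nor were Flt1 (−0.5, exact permutation p = 0.0742), Sox17 (−0.51) and Vwf (−0.37). With the mouse as a block Flt1 (limma p = 0.0321) and Sox17 (limma p = 0.0451) passed. Cdh5, under the filter, differed by −0.31. The mice were not alike. The mean over the 38 genes was lower ipsilaterally in 9 of 12, with −1.44 on the log2 scale in 9_17 and −1.18 in 9_15, and it was higher in 9_16, 9_18 and 9_20. In those 9 mice between 28 and 37 of the 38 genes were lower ipsilaterally, and in the other 3 between 8 and 9 were. The mean difference was −0.36 in mice whose names begin with 8 and −0.39 in the others.

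In the 5 sham mice the direction was the same on average. Of 31 genes 1 was called lower, against a background of 1.11%, and 0% of genes passed the adjusted threshold in limma. That fit did not pair the sides of a mouse either. With the mouse as a block 10 were called lower, against a background of 6.52%, again with 0% past the adjusted threshold. Abcb1a was the gene called. It stood at 6.3, 5.55, 1.97, 8.32 and 3.02 TPM ipsilaterally and 7.61, 9.71, 6.62, 19.08 and 9.71 TPM contralaterally in mice 8_15, 8_16, 9_9, 9_10 and 9_11, lower in every mouse. The log2 difference was −0.97 ± 0.49 (SD, exact permutation of signs p = 0.0625, the smallest that 5 mice allow). Without mouse 9_11 none were called, and without 9_10, 2. Averaged over mice, 37 of 38 genes were lower ipsilaterally, all but Erg, and the mean over the 38 genes differed by −0.38 ± 0.36 and was lower in 5 of 5 mice, with values from −0.87 in 9_11 to −0.01 in 8_15. Cldn5 differed by −0.29 and Pecam1 by −0.27, each higher ipsilaterally in some mice, while Cdh5 (−0.5) and Cd34 (−0.48) were lower in all 5. With the mouse as a block Flt1 (limma p = 0.0079), Vwf (limma p = 0.0067) and Cd34 (limma p = 0.0137) also passed. Vwf, and Kdr among the other block calls, passed the filter only through the contralateral side, where they were high. Their calls are thus no support for a difference. Without mouse 9_11 the block gave 6 calls. Whether injured and sham mice differ in this was not tested.

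**Figure D5:**
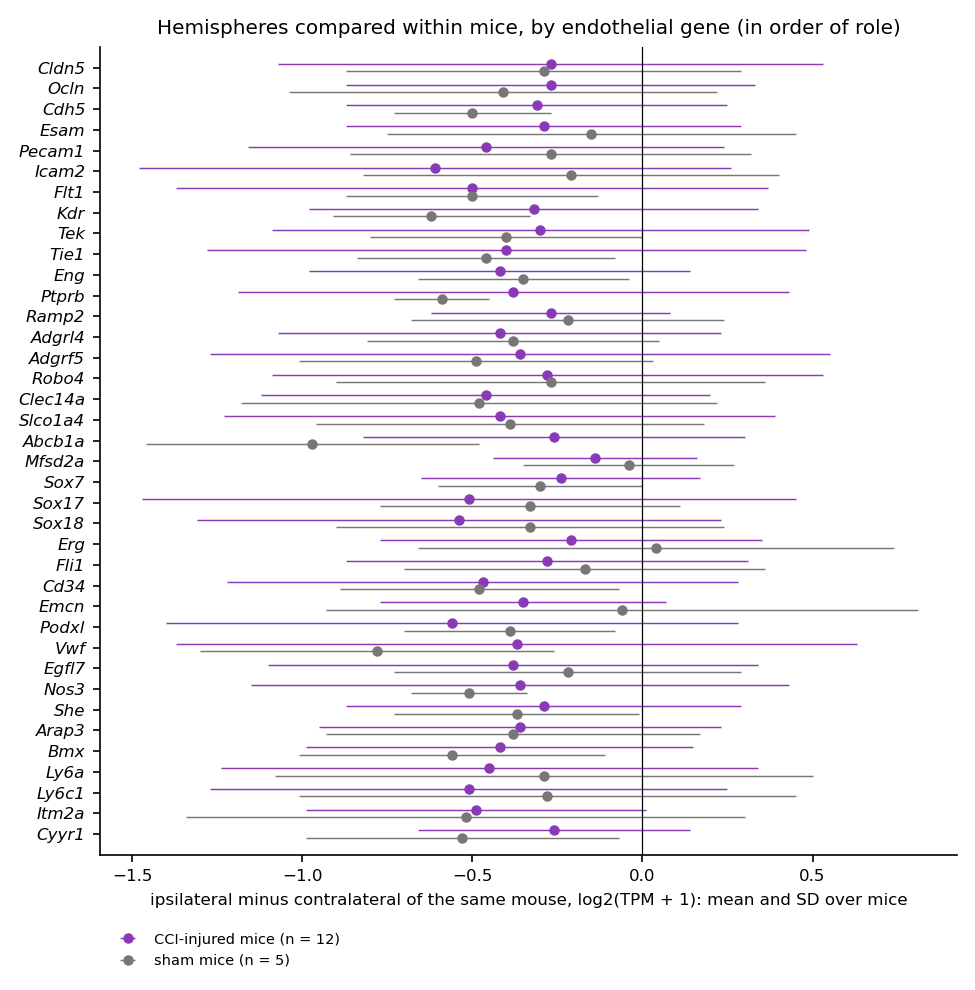
Ipsilateral minus contralateral difference in log2(TPM + 1) within mice for each of the 38 endothelial genes in order of role, with a point at the mean and a bar for the SD over 12 injured or 5 sham mice. All 38 means of injured mice lie below 0, from −0.61 for Icam2 to −0.14 for Mfsd2a, and in sham mice Abcb1a is lowest at −0.97.

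Other lists of vascular genes were fitted in the same models. In the contralateral PTE+ and PTE− comparison, 3 of 31 further endothelial genes were called higher, the transcription factors Foxf2 (0.60) and Foxq1 (0.74) and the amino acid transporter Slc7a5 (0.57). Of arterial genes, 2 of 10 were called higher, the matrix protein Mgp (0.77) and the Notch ligand Dll4 (0.70). Foxf2 and Foxq1 are also on the list of endothelial Wnt signalling and the barrier, and Lsr (0.67), an angulin of tricellular junctions, was among the others called higher from it. None of 6 VEGF and angiopoietin pathway genes, 6 venous genes or 15 mural genes were called in limma, and none of 4 erythrocyte, 11 microglial, 8 oligodendrocyte or 12 astrocyte genes were. Of 9 neuronal genes 1 was called higher, Stmn2 (0.64). Between the hemispheres of injured mice, 6 of 29 further endothelial genes were called lower ipsilaterally, among them the amino acid transporter Slc38a5 (−0.55) and endothelin Edn3 (−0.53), as were 3 of 10 arterial and 3 of 14 mural genes. Of 7 venous genes 2 were called higher, the lipocalin Lcn2 (2.04) and the adhesion molecule Icam1 (0.50), and 1 lower, Slc38a5 again. Of the 19 Wnt and barrier genes 1 was called higher, the Wnt inhibitor Apcdd1 (0.55), and 3 lower, while Gfap (1.21) and Aqp4 (0.29) of the astrocyte list were called higher. Of 8 oligodendrocyte genes 4 were called lower ipsilaterally, and of 4 erythrocyte genes and 11 microglial genes none were (limma). The part of these cells in the endothelial difference was not tested.

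The genes whose levels ran closest to the mean of the 38 in both hemispheres were Slc38a5 and Lmo2, a transcription cofactor, out of 10036 genes compared, on deviations from group means. For Slc38a5 r was 0.87 ipsilaterally (19 libraries) and 0.92 contralaterally (18 libraries), and for Lmo2 0.95 and 0.87. They were followed by Slc6a6, Degs2, Lsr, Anxa3, Pltp, Bsg, Slc9a3r2 and Ly6e, for which the lower of both values lay between 0.78 and 0.84. Without the library of mouse 9_14 the ipsilateral r was 0.94 for Slc38a5 and 0.95 for Lmo2.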

How the data were processed

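Astrocyte RNA was sequenced by the authors from libraries made with SMART-Seq v4. Reads were trimmed with Trim Galore (0.6.4) and quantified on mm10 with RSEM (1.2.28) and Bowtie2 (2.4.1), per the submitters' processing notes, and the annotation release is not given in the sources used here. The authors deposited TPM per Ensembl gene, in 1 table per hemisphere. Their own comparisons used counts, which were not used here. TPM keep no depth, so precision rests on the number of mice.

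Symbols and positions came from GENCODE vM21 (GRCm38), which named 21856 of 21975 identifiers. Values were compared as log2(TPM + 1), which understates changes of genes with low TPM, with limma (3.58.1, R 4.3.3) and a variance trend, and genes whose mean exceeded 5 TPM in any group compared were tested. Calls needed p under 0.05 before adjustment and a fold change of 1.2 or more, as in the study. Single genes were tested by two-sided exact permutation of libraries (1001 and 715 arrangements for PTE+ and PTE−, smallest p 0.000999 and 0.0014, and 11628 and 8568 for CCI and sham), or of signs over mice (4096 and 32). Hemispheres were paired by the name of the mouse, since both come from the same animal. The pairing entered the block, the permutation of signs and the within-mouse differences. The main limma fits of the hemispheres and of the interaction left the mouse out. Deviations from group means over 10235 genes correlated between hemispheres with a median r of 0.41 over 17 mice, above 0.1 in 16. For the mean of the endothelial genes, deviations on both sides correlated over mice with r = 0.41 (rho 0.18). Without the 2 farthest mice that r was 0.01, so for this mean the relation between sides rested on those 2 mice. Fits were tested on simulated data.

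Genes named singly were Cldn5, Flt1, Pecam1 and Cdh5, the genes Vwf, Sox17 and Cd34 that the study names, up to 6 called genes with the smallest p per comparison, up to 3 per other list, and the 10 nearest genes by r. The result of a gene of the other lists is not reported here. Adgrf5, Adgrl4, Arap3, Nos3, Clec14a and Robo4 in the PTE comparison, Kdr, Sox18 and genes whose call the block changed were added to account for the calls or the receptors. The 38 genes and all lists were chosen with earlier results of these data known. Python 3.11.15, scipy 1.17.1, pandas 2.3.3, numpy 2.4.6 and matplotlib 3.10.9 were used. Alternatives were a pseudocount of 0.1, other TPM filters, quantile normalization, centring, a fit of all groups, array weights, the name prefix as covariate, other fold thresholds, the mouse as a block and leaving out single mice. Leaving out a mouse together with the block, and mouse 9_14 in the interaction and the correlations, was chosen after seeing the data.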

Additional observations from a re-analysis of the deposited data

Results flagged for a closer look

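Over 17 quantities (the named endothelial genes and their mean), 102 groups of 4 to 10 libraries were examined for a library far from the rest of its group, and 7 were found, where chance gives about 1 in 20. The ipsilateral library of PTE− mouse 9_14 accounted for 5 of them. In it Sox17 was at 0.0 on the log2(TPM + 1) scale against 4.04 to 6.21 in the other PTE− libraries, Tie1 at 0.0 against 1.83 to 3.71, Icam2 at 0.0 against 3.34 to 4.72, and Eng at 1.63 against 3.19 to 4.44. Clec14a went the other way in that library, at 3.99 (14.87 TPM) against 1.38 to 2.36. Cdh5 in the ipsilateral library of PTE+ mouse 9_17 was at 1.74 (2.34 TPM) against 1.24 to 1.31. Itm2a in the contralateral library of sham mouse 9_9 was at 6.23 (73.89 TPM) against 7.93 to 8.53. No cause was tested.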

How the results depend on the processing

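The count of called endothelial genes moved by over 1.5 times as follows. For PTE+ against PTE−, the contralateral count of 12 became 22 with array weights and ranged from 0 to 30 when single PTE+ mice were left out. The ipsilateral count of 0 became 5 with array weights, 1 with no filter on TPM and 1 without the library of mouse 9_14, and ranged from 0 to 1 without single mice. Of the ipsilateral genes called in these filtered fits, Ptprb and Tie1 passed the filter only through PTE+ mice. For injured mice against sham the contralateral count ranged from 0 to 2 without single mice, and the ipsilateral count stayed at 0. Between hemispheres of injured mice the count of 7 became 4 with no filter, 12 with array weights, 1 at a fold of 1.5 and 17 with the mouse as a block, and ranged from 2 to 10 without single mice. In sham mice the count of 1 became 2 with no filter, 0 after quantile normalization, 4 with array weights, 10 with the mouse as a block and 6 with the block and without mouse 9_11, and ranged from 0 to 2 without single mice. The interaction of outcome and hemisphere had 0 calls with and without the block and 0 to 3 without single mice. Between hemispheres, the mouse as a block added calls of Adgrl4, Egfl7, Emcn, Eng, Flt1, Ly6a, Ly6c1, Ramp2, Slco1a4 and Sox17 in injured mice. In sham mice it added Adgrf5, Cd34, Eng, Flt1, Kdr, Nos3, Ptprb, Tie1 and Vwf, and no call was lost in either. Of these, Kdr and Vwf in sham mice passed the filter only through the contralateral side. In all, 97 of 119 alternative counts were within 1.5 times, which includes counts of 0 that stayed at 0. Backgrounds are given above for the main fits, for the contralateral PTE comparison with no filter and for the block between hemispheres. The other counts stand without a background, so they do not single out endothelial genes. All 76 alternative values of the mean over the 38 genes moved by less than 1 SD between libraries of a group. That SD is wide, so this is no sign of stability. The contralateral difference of PTE+ from PTE− in that mean ran from 0.24 to 0.93 when single PTE+ mice were left out. Of 825 alternative values of single genes, 748 kept direction and call, 25 lost and 17 gained a call. Another 35 uncalled or untested values changed sign or moved by over 1 SE, and 0 called values reversed. The causes were not tested. TPM without counts leave the precision of low genes such as Cdh5, Erg and Cyyr1 unknown.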
